A study of Mus musculus with 17 samples.

Results

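Mitosis genes of distant MC38 tumors were examined after cryoablation of the tumor on the other flank. The 38 genes were chosen by name, as genes whose products prepare, drive or complete cell division, and all 38 were found among the 21931 genes of the deposited table. All 38 also passed the filter on low counts, which left 13005 genes to be tested. MC38 is a mouse colon cancer line. In both groups, wild-type MC38 cells were injected under the skin on each side of C57BL/6J mice aged 6 to 8 weeks. In the cryoablation group (8 tumors), a cryoprobe froze the tumor of one side on day 7 after implantation, in 2 cycles of 20 s each according to the sample labels. The methods of the study give a longer cycle. The control group (9 tumors) is labelled as control, with no freezing. Tumors were taken 5 days after cryoablation, in the cryoablation group from the side that had not been frozen, and their RNA was sequenced in bulk.

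A dividing cell makes most of these mRNAs late in its cycle, so that they are abundant in tissue with many cycling cells and scarce in resting tissue. Cyclin B with the kinase Cdk1 starts mitosis, the kinetochores tie the chromosomes to the spindle, and the spindle checkpoint holds back the anaphase-promoting complex until every chromosome is attached. That complex then marks securin and the cyclins for destruction, the sister chromatids part, and the cytokinesis machinery divides the cell. A growing tumor may hold cancer cells, stromal cells and immune cells, all able to divide. In bulk RNA, fewer dividing cells and less mitotic mRNA per dividing cell cannot be told apart.

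Total counts were between 14154687 and 17898672 per control tumor and between 13524899 and 16847050 per cryoablation tumor, where 3 counts corresponded to 0.152 to 0.289 CPM (counts scaled by the total of the tumor and its TMM factor). The members had between 44 counts (Kif20a in cryoablation replicate 4) and 14835 counts (Top2a), so counting error was small for nearly all of them. Cryoablation replicates 2, 4 and 5 stood apart from the other 14 tumors. Their 260 tested genes shorter than 1000 bases lay on average 0.92, 0.93 and 1.07 log2 units above the mean of each gene over the 17 tumors, against -0.56 to 0.40 in the others. The summed CPM of the colon epithelium markers was 160.2, 151 and 230.0 in these 3 tumors and 21.9 to 107 in the others. The keratins Krt8, Krt18 and Krt19 reached 58.8, 54.8 and 91.6 CPM in the cryoablation group and 19.9, 15.1 and 30.95 CPM in the control group. Other markers differed less, with highest values of 23.3 and 26.2 CPM for Cdh1 and 16.9 and 14.6 CPM for Lgals4. The labelled origin of the cells could be checked only in part. Of 11 colon epithelium markers, 7 passed the filter, Cdx2 had 0 counts in all 17 tumors, Krt20, Cdx1 and Vil1 had at most 7, 10 and 11 counts, and Epcam ranged from 0.482 to 8.67 CPM.

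No mitosis gene passed the comparison of the groups once p values were adjusted. In the edgeR quasi-likelihood test, 1 of the 38 members (Pttg1, higher in the cryoablation group) had an unadjusted p below 0.05 and 0 were lower at that level. Over all genes tested the share was 4.91%, of which 3.74% were higher and 1.17% lower, so the members' count was not above the background. With Benjamini-Hochberg adjustment over the 13005 genes, 0 members and 0% of all genes passed 0.05, and the smallest adjusted p of a member was 0.728. At an absolute log2 fold change over 1 together with an unadjusted p below 0.05, 0 members passed, against 0.492% of all genes. The ranges of both groups overlapped for every member, as they did for every gene tested (0% without overlap). DESeq2 also gave Pttg1 alone an unadjusted p below 0.05, beside 6.77% of all genes. With limma's voom it was Mki67 and not Pttg1, beside 10.1% of all genes. After adjustment, 0 members had a p below 0.05 with DESeq2 or with limma's voom.

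The log2 fold changes (cryoablation over control) lay between -0.31 (Prc1) and 0.54 (Pttg1). Their median was 0.05, beside -0.01 over all genes tested, with 23 members above 0 and 15 below. The 95% interval of the fold change stayed within 1 log2 unit of 0 for 35 members, all except Kif20a, Prc1 and Pttg1, and within 0.5 for 23. A change of 2-fold in either direction therefore lay outside the interval for most members. The plot of fold changes by role shows the differences beside their errors. The median absolute log2 fold change of the members was 0.13, and their median standard error was 0.14. Some differences were larger than their error, such as those of Pttg1 (0.54, standard error 0.23), Birc5 (0.45, standard error 0.24) and Cenpa (0.33, standard error 0.16).

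**Figure D1:**
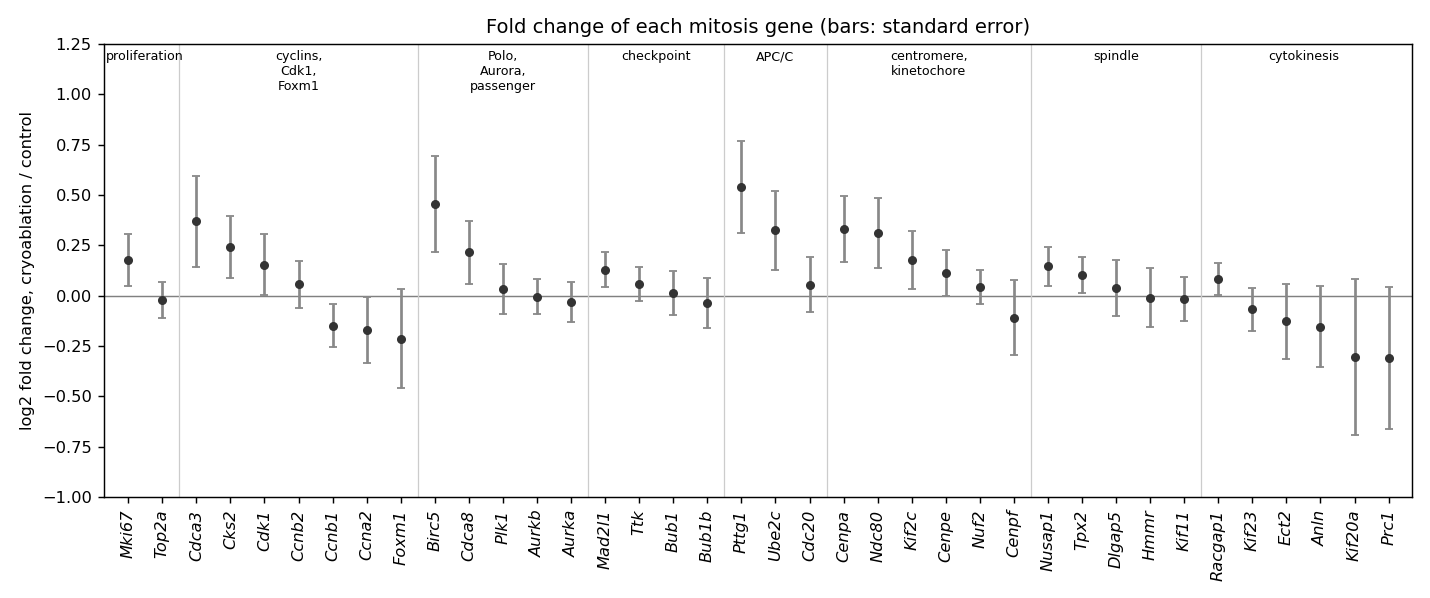
Log2 fold change of each of the 38 mitosis genes (y axis, cryoablation over control; points, edgeR estimate; bars, standard error), grouped by role along the x axis. The estimates lie between -0.31 for Prc1 and 0.54 for Pttg1, with the members of the anaphase-promoting complex group above 0 and 5 of the 6 cytokinesis genes below 0. In the fit without cryoablation replicates 2, 4 and 5, not plotted, Pttg1, Ube2c and Cdc20 were below 0 and Prc1, Kif20a and Anln above 0.

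The level of the members was compared per gene length, in the deposited FPKM (reads scaled by gene length and by the total count of the tumor) averaged over the 17 tumors. Cdc20 was highest at 104 FPKM, followed by Top2a (80.2 FPKM), Ube2c (72.3 FPKM), Cks2 (68.5 FPKM), Mki67 (53.0 FPKM) and Ccnb2 (52.9 FPKM). The SD of Cdc20 was 18.3 FPKM (n = 9 control tumors) and 12.8 FPKM (n = 8 cryoablation tumors) and that of Top2a was 10.8 and 15.4 FPKM, so the step between them was larger than the spread. The neighbours Top2a and Ube2c, Ube2c and Cks2, and Mki67 and Ccnb2 differed by less than their SDs. The lowest were Cenpf (9.41 FPKM), Prc1 (8.67 FPKM) and Ttk (7.66 FPKM), which also lay within their spread of each other.

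**Figure D2:**
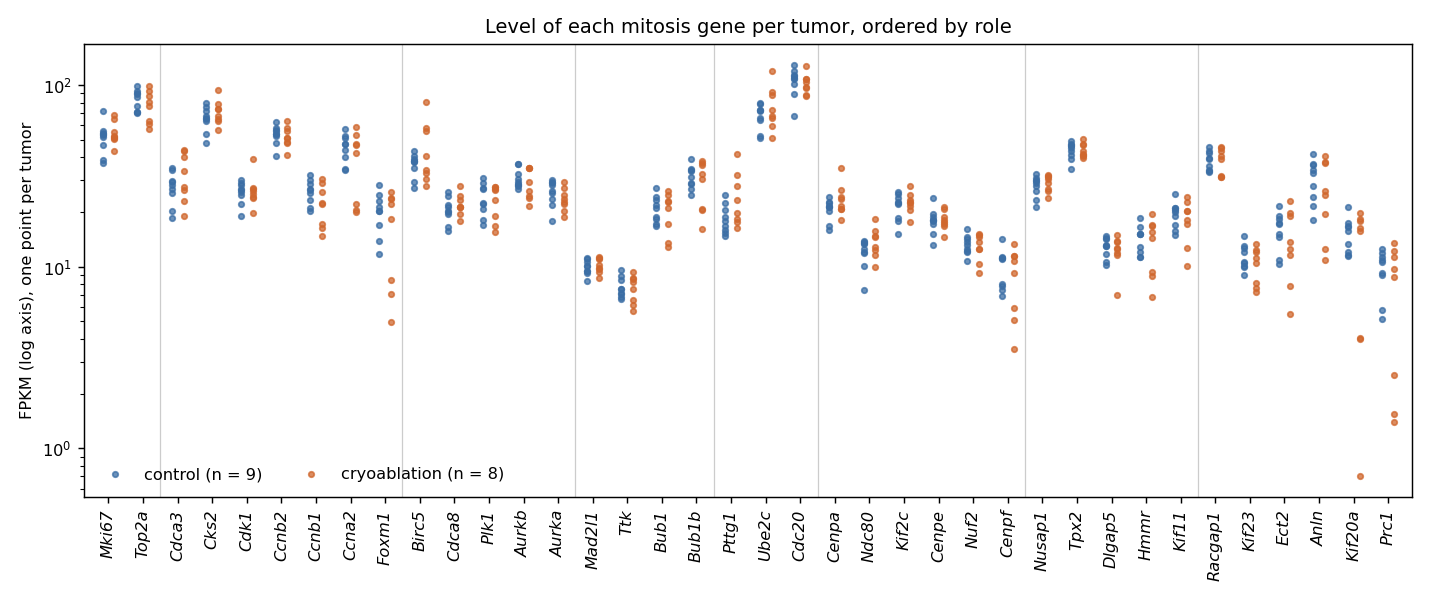
FPKM of each mitosis gene in each tumor (log axis; blue, 9 control tumors; orange, 8 cryoablation tumors), ordered by role along the x axis. Cdc20, with a mean of 104 FPKM, has the highest mean, Ttk has a mean of 7.66 FPKM, and the orange points of Foxm1, Kif20a and Prc1 spread far below the blue ones.

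The promoters of the members were read because genes of this group are known to share regulatory elements. The CHR element binds the MuvB complex, which represses these genes in resting cells and activates them in dividing cells, and the CCAAT box binds NF-Y. Promoter windows of 300 bases, from 250 before to 50 after the transcription start, were taken from RefSeq (GRCm38.p6) and were found for 32 members in 34 windows, since Ect2 and Prc1 have 2 each. A CHR element, TTTGAA or TTTAAA on either strand, stood in 28 of the 34 windows (82.4%), in 27.6% of 32851 promoters of all genes and in 24.3% of 37 windows of DNA replication genes. A CCAAT box on either strand stood in 76.5% of the member windows, 37.4% of all promoters and 62.2% of the DNA replication windows. Both stood together in 24 member windows (70.6%), against 10.7% of all promoters. The E2F sites searched, TTTCCCGC, TTTGGCGC and TTCCCGCC on either strand, stood in 0 of the 34 member windows, 3.2% of all promoters and 37.8% of the DNA replication windows. The matches were counted as letters in these windows and do not show binding. The 4 members with the highest FPKM that held both elements are printed, 5′ to 3′ on the strand of the gene, with CHR elements and CCAAT boxes of either strand in capitals (TTCAAA and ATTGG are the reverse complements). They are shown because Cdc20, Top2a, Ube2c and Mki67 carry the pattern that most members shared. Cdc20 lies at chr4:118437294-118437593 on the minus strand, Top2a at chr11:99024140-99024439 on the minus strand, Ube2c at chr2:164769679-164769978 on the plus strand and Mki67 at chr7:135716330-135716629 on the minus strand.
Cdc20: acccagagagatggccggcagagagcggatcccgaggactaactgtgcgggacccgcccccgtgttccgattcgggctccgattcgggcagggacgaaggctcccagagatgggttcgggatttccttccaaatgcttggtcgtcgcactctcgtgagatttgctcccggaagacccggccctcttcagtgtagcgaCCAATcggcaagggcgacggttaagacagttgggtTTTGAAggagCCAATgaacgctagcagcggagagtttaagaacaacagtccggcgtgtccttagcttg
Top2a: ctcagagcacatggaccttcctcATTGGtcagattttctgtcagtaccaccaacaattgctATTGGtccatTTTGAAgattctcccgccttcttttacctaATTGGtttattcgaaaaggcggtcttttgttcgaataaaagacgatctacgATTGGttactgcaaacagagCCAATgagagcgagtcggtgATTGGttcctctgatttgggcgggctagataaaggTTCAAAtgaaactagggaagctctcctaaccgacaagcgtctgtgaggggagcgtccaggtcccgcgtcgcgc
Ube2c: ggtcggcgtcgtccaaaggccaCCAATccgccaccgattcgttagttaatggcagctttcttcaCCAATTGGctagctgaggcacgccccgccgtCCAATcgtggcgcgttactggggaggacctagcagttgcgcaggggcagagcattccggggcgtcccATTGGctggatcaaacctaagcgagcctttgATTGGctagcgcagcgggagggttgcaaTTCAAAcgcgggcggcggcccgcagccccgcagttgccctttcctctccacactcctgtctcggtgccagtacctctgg
Mki67: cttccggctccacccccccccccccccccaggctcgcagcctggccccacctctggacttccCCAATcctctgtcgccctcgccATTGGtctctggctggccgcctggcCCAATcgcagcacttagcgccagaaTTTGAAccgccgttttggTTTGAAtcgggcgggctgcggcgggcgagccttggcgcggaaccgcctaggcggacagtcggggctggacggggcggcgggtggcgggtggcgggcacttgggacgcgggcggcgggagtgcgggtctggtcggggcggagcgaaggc
Counted with the first transcribed base as 0, the CHR element closest to the start began at position -18 in Cdc20, -23 in Top2a, -29 in Ube2c and -98 in Mki67. In Ube2c, 2 of the 6 CCAAT boxes overlap in the letters CCAATTGG. Pttg1, Nusap1, Nuf2 and Mad2l1 held neither element in their windows, and Cks2 and Bub1 held CCAAT boxes without a CHR element.

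Mki67 and Top2a are the members most used to mark dividing cells. Mki67 encodes the Ki-67 antigen, which coats mitotic chromosomes. The gene (ENSMUSG00000031004, chromosome 7) ranged from 341 to 681 CPM (median 507) in the control group and from 487 to 667 CPM (median 577) in the cryoablation group. Control replicates 3 and 4 were the lowest and control replicate 6 the highest, and the cryoablation tumors lay inside the control range. The log2 fold change of Mki67 was 0.18 (standard error 0.13), and the two-sided exact permutation test gave p = 0.154. Under limma's voom, which weights each sample by its quality, Mki67 had a log2 fold change of 0.25 and was the only member with an unadjusted p below 0.05, beside 10.1% of all genes in that fit. Top2a, the topoisomerase that untangles sister chromatids, ranged from 578 to 836 CPM (median 733) in the control group and from 619 to 827 CPM (median 686) in the cryoablation group. Top2a had a log2 change of -0.02 (standard error 0.09) with a 95% interval of -0.21 to 0.17.

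Among the cyclins, Cdk1 and its regulators, the median log2 fold change was 0.06, with 4 of 7 members above 0 and 0 called. Cdk1, the kinase that drives entry into mitosis, ranged from 85.4 to 160.3 CPM (median 123) in the control group and from 93.1 to 218 CPM (median 126) in the cryoablation group, with the highest value in cryoablation replicate 4. Ccnb1, its partner cyclin B1, ranged from 77.7 to 128 CPM (median 106) and from 72.5 to 118 CPM (median 91.4), and cryoablation tumors were below the control median in 6 of 8 cases. The log2 fold changes of Cdk1 and Ccnb1 were 0.15 (standard error 0.15) and -0.15 (standard error 0.11). Ccna2, cyclin A2, which acts in S phase and early mitosis, ranged from 149 to 222 CPM (median 184) in the control group and from 98.1 to 224 CPM (median 178) in the cryoablation group. Cryoablation replicates 2, 4 and 5 had 98.1, 102 and 107 CPM of Ccna2 and were its lowest tumors. Foxm1, a transcription factor that drives the late cell cycle genes, ranged from 73.6 to 152 CPM (median 112) and from 32.3 to 139 CPM (median 114). The same 3 tumors were lowest again, at 57.0, 32.3 and 53.1 CPM of Foxm1. Ccna2 had a fitted log2 change of -0.17 (standard error 0.16) and Foxm1 of -0.21 (standard error 0.25), and both turned positive, to 0.10 and 0.16, when the 3 tumors were left out together. The remaining genes of this role, Cdca3, Cks2 and Ccnb2, had log2 fold changes of 0.37, 0.24 and 0.06.

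The kinases Plk1, Aurka and Aurkb had fold changes near 0. Plk1, which matures the centrosomes and promotes mitotic entry, ranged from 36.2 to 64.1 CPM (median 52.9) in the control group and from 41.8 to 66.1 CPM (median 52.2) in the cryoablation group. Aurka, the Aurora kinase of the spindle poles, ranged from 40.7 to 70.6 CPM (median 68.3) and from 54.6 to 67.8 CPM (median 61.2), and all 8 cryoablation tumors lay below its control median but above control replicate 3. Aurkb, the kinase of the chromosomal passenger complex, ranged from 77.6 to 102 CPM (median 85.8) and from 71.8 to 99.1 CPM (median 88.3). The log2 fold changes of Plk1, Aurka and Aurkb were 0.03 (standard error 0.12), -0.03 (standard error 0.10) and -0.01 (standard error 0.09). Birc5, survivin, which belongs to the same complex as Aurkb, differed from it. It ranged from 83.7 to 158 CPM (median 125) in the control group and from 90.1 to 310.1 CPM (median 122) in the cryoablation group. The 3 highest values, 224, 310.1 and 259 CPM, were those of cryoablation replicates 2, 4 and 5, while the medians of the groups were nearly the same. The log2 fold change of Birc5 was 0.45 (standard error 0.24; exact permutation p = 0.2204), and without those tumors it was -0.18. Cdca8, borealin of the same complex, was at 0.21 on the log2 scale (standard error 0.15).

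The 4 spindle checkpoint genes had a median log2 fold change of 0.03. Bub1b, which encodes the checkpoint protein BubR1, ranged from 96.7 to 157 CPM (median 131) in the control group and from 78.2 to 154 CPM (median 131) in the cryoablation group. For Bub1b the log2 fold change was -0.04 (standard error 0.12). Mad2l1, the Mad2 protein that holds Cdc20 inactive, ranged from 63.2 to 91.9 CPM (median 84.5) and from 77.9 to 106 CPM (median 87.9). Its log2 fold change was 0.13 (standard error 0.09; exact permutation p = 0.107). Control replicate 3 was the lowest tumor for Mad2l1, Ttk and Bub1.

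The 3 genes that work with the anaphase-promoting complex were all above 0, with a median log2 fold change of 0.32. Without cryoablation replicates 2, 4 and 5 all 3 were below 0 (Ube2c -0.13, Cdc20 -0.05, Pttg1 -0.01). Pttg1 encodes securin, which keeps separase inactive until anaphase. Pttg1 (ENSMUSG00000020415, chromosome 11) had 47.9, 38.8, 29.0, 28.4, 54.0, 29.0, 31.2, 33.5 and 35.9 CPM in control replicates 1 to 9 and 38.1, 74.7, 33.7, 94.97, 72.3, 30.4, 33.4 and 46.4 CPM in cryoablation replicates 1 to 8. Only cryoablation replicates 2, 4 and 5 lay above the control range, and the control median of 33.5 CPM was exceeded in 6 of 8 cryoablation tumors. The log2 fold change of Pttg1 was 0.54 (standard error 0.23, 95% interval 0.06 to 1.03), with an edgeR p of 0.0286 before and 0.728 after adjustment. The two-sided exact permutation test gave p = 0.0825 for Pttg1. Under limma's voom its log2 fold change was 0.27, and its unadjusted p was above 0.05. Without the 3 tumors the fold change was -0.01 on the log2 scale, and with 1 tumor left out at a time Pttg1 kept an unadjusted p below 0.05 in 11 of 17 fits. The call was lost without control replicate 3, 4 or 6 or cryoablation replicate 2, 4 or 5. Ube2c, the enzyme that starts ubiquitin chains for this complex, ranged from 121 to 225 CPM (median 174) in the control group and from 127 to 354 CPM (median 179) in the cryoablation group. The tumors above the control range were again cryoablation replicates 2, 4 and 5 (269.9, 354 and 311 CPM), and the log2 fold change of Ube2c was 0.32 (standard error 0.20). Cdc20, the activator of the complex, ranged from 114 to 258 CPM (median 190.1) and from 156 to 264 CPM (median 190.5), with a log2 fold change of 0.05 (standard error 0.14).

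Of the 6 centromere and kinetochore genes, 5 had a log2 fold change above 0 and the median was 0.15. Cenpa, the histone H3 variant that marks centromeres, ranged from 84.1 to 152 CPM (median 119) in the control group and from 101 to 233 CPM (median 127) in the cryoablation group. Ndc80, which binds microtubules at the kinetochore, ranged from 44.1 to 97.0 CPM (median 76.0) and from 61.5 to 134 CPM (median 87.45). In both genes cryoablation replicates 2, 4 and 5 lay above every other tumor, and control replicate 3 was the lowest. The log2 fold changes of Cenpa and Ndc80 were 0.33 (standard error 0.16; exact permutation p = 0.111) and 0.31 (standard error 0.17; exact permutation p = 0.134), and without the 3 tumors they were -0.02 and -0.01. Cenpe, the kinesin that moves chromosomes to the spindle middle, ranged from 103 to 195 CPM (median 154.5) and from 143 to 203 CPM (median 161), with a log2 fold change of 0.11 (standard error 0.11). Cenpf, a large protein of the outer kinetochore, went the other way in the same 3 tumors. It ranged from 109 to 208 CPM (median 160.4) in the control group and from 70.8 to 193 CPM (median 151) in the cryoablation group, where cryoablation replicates 2, 4 and 5 had 92.0, 103 and 70.8 CPM. The log2 fold change of Cenpf was -0.11 (standard error 0.19).

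The spindle assembly genes had a median log2 fold change of 0.04. Kif11, the kinesin that pushes the spindle poles apart, ranged from 115 to 176 CPM (median 141) in the control group and from 97.7 to 166 CPM (median 145) in the cryoablation group. Tpx2, which activates Aurka on the spindle, ranged from 147 to 224 CPM (median 203) and from 183 to 242 CPM (median 214). Neither was called, with log2 fold changes of -0.02 (standard error 0.11) for Kif11 and 0.10 (standard error 0.09) for Tpx2. Nusap1, Dlgap5 and Hmmr, which bundle or anchor spindle microtubules, had log2 fold changes of 0.15, 0.04 and -0.01.

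The cytokinesis genes had a median log2 fold change of -0.14, with 5 of 6 below 0 and 0 called. Kif20a is the kinesin that carries the passenger complex to the spindle midzone. It had 61.8, 68.2, 45.6, 47.5, 56.8, 86.7, 64.0, 70.9 and 69.6 CPM in control replicates 1 to 9. In cryoablation replicates 1 to 8 it had 75.3, 20.7, 73.2, 3.44, 22.7, 79.8, 67.5 and 68.0 CPM. Cryoablation replicates 2, 4 and 5 were below all other tumors, and the other 5 cryoablation tumors lay within the control range and above the control median. Prc1, which crosslinks the microtubules of the midzone, had 45.1, 85.1, 69.1, 70.7, 51.5, 97.2, 81.2, 91.9 and 88.4 CPM in the control group. In the cryoablation group Prc1 (ENSMUSG00000038943, chromosome 7) had 77.6, 24.3, 92.7, 14.4, 15.1, 103, 88.1 and 71.7 CPM, and the same 3 replicates were the lowest. The log2 fold changes were -0.30 (standard error 0.39) for Kif20a and -0.31 (standard error 0.35) for Prc1, and without the 3 tumors both were 0.19. Anln, which binds actin and myosin at the cleavage furrow, ranged from 175 to 356 CPM (median 286) in the control group and from 129 to 346 CPM (median 227) in the cryoablation group. Anln was at -0.15 on the log2 scale (standard error 0.20), and at 0.12 without the 3 tumors. Ect2 and Racgap1, which switch on RhoA at the furrow, had log2 fold changes of -0.13 and 0.08, and Kif23, the kinesin partner of Racgap1, had -0.07.

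The 3 cryoablation tumors that stood apart thus pulled members in opposite directions, with shares not far from those of all genes tested. All 3 lay above the range of the other 14 tumors for Birc5, Cdca3, Cenpa, Cks2, Ndc80, Pttg1 and Ube2c (7 of 38 members, 18.4%, beside 12.8% of all genes tested). They lay below that range for Ccna2, Cenpf, Foxm1, Kif20a and Prc1 (5 of 38 members, 13.2%, beside 11.5% of all genes). At least 2 of the 3 lay above it for 23.7% of the members, beside 23.6% of all genes. At least 2 lay below it for 21.1% of the members, beside 25.1% of all genes. The split was therefore not particular to the mitosis genes. For the other 26 members, among them Mki67, Top2a, Aurka and Cdc20, the 3 tumors did not all fall outside on one side. The heat map of deviations shows the same 3 columns in strong red and strong blue.

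**Figure D3:**
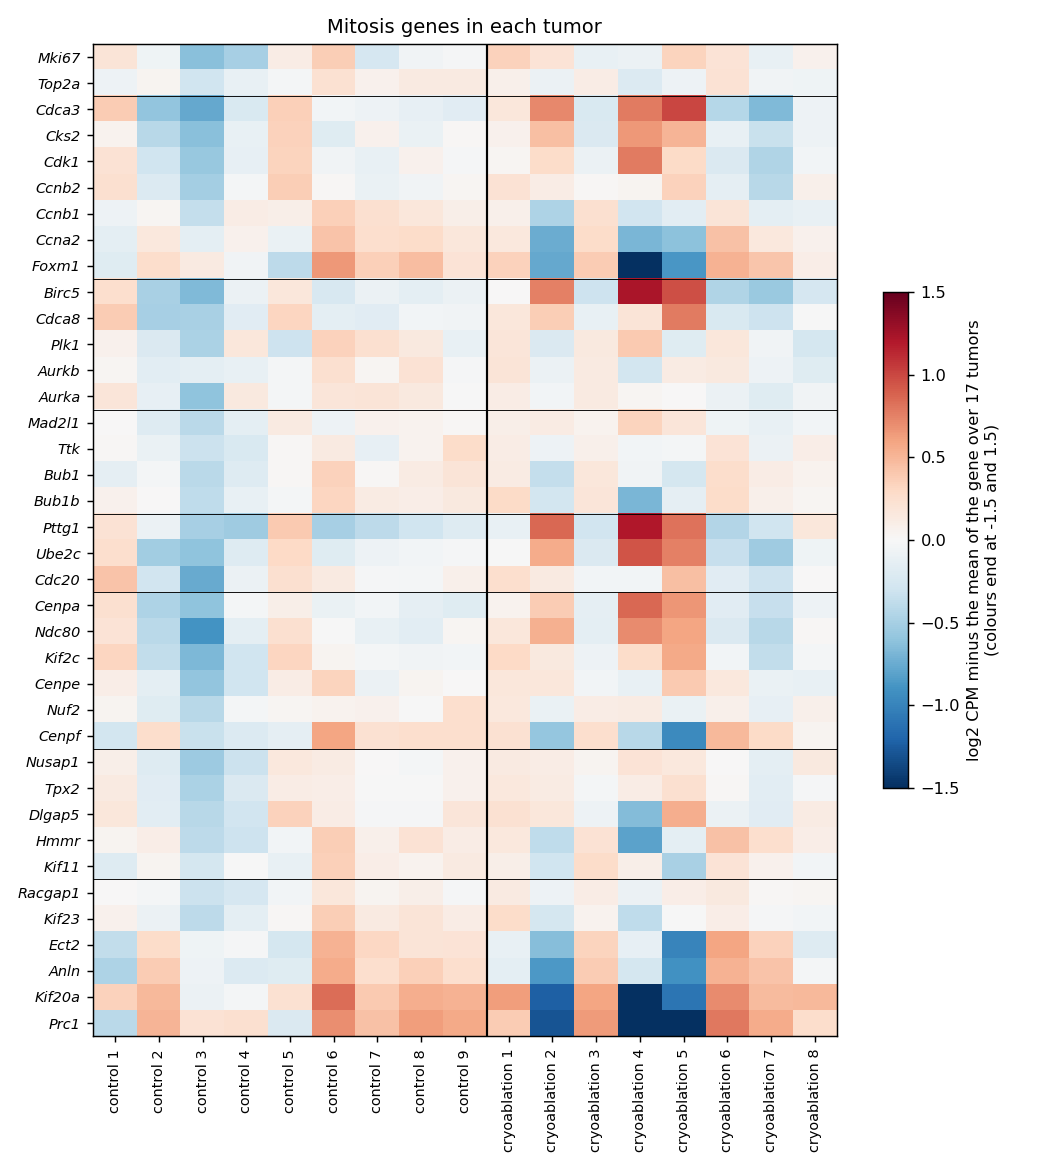
Deviation of each mitosis gene (rows, by role) from its mean over the 17 tumors (columns; log2 CPM, colours end at -1.5 and 1.5). The columns of cryoablation replicates 2, 4 and 5 hold both the strongest red and the strongest blue cells, control replicate 3 is blue in nearly every row, and control replicate 6 is red in most rows.

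Both directions were found within roles. Among the cyclins, Cdk1 and its regulators, Cdca3 and Cks2 were high and Ccna2 and Foxm1 low in these tumors, and among the centromere and kinetochore genes Cenpa and Ndc80 were high and Cenpf low. Of the 6 cytokinesis genes, only Kif20a and Prc1 had all 3 tumors below the others, and of the genes that work with the anaphase-promoting complex, Cdc20 had 1 of the 3 above. Averaged over all 38 members, the 3 tumors were unremarkable, at -0.07, -0.10 and 0.02 beside a range of -0.42 to 0.20. The 7 genes that were high had lengths of 692 to 6493 bases (median 2866), the 5 that were low had lengths of 4083 to 15433 bases (median 5754) and the other 26 had lengths of 1531 to 10061 bases (median 5055.5). Across genes, which are not independent, the Spearman correlation of log2 fold change with gene length was -0.26 over the 38 members and -0.38 over all genes tested. Of 7 erythroid markers 4 passed the filter, and the list summed to 142, 91.6 and 175 CPM in the 3 tumors and to 6.16 to 74.7 CPM in the others, with Slc4a1 at no more than 3 counts in any tumor. The part of gene length, of RNA of the keratins and other colon epithelium markers, and of erythroid RNA in these values was not tested.

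**Figure D4:**
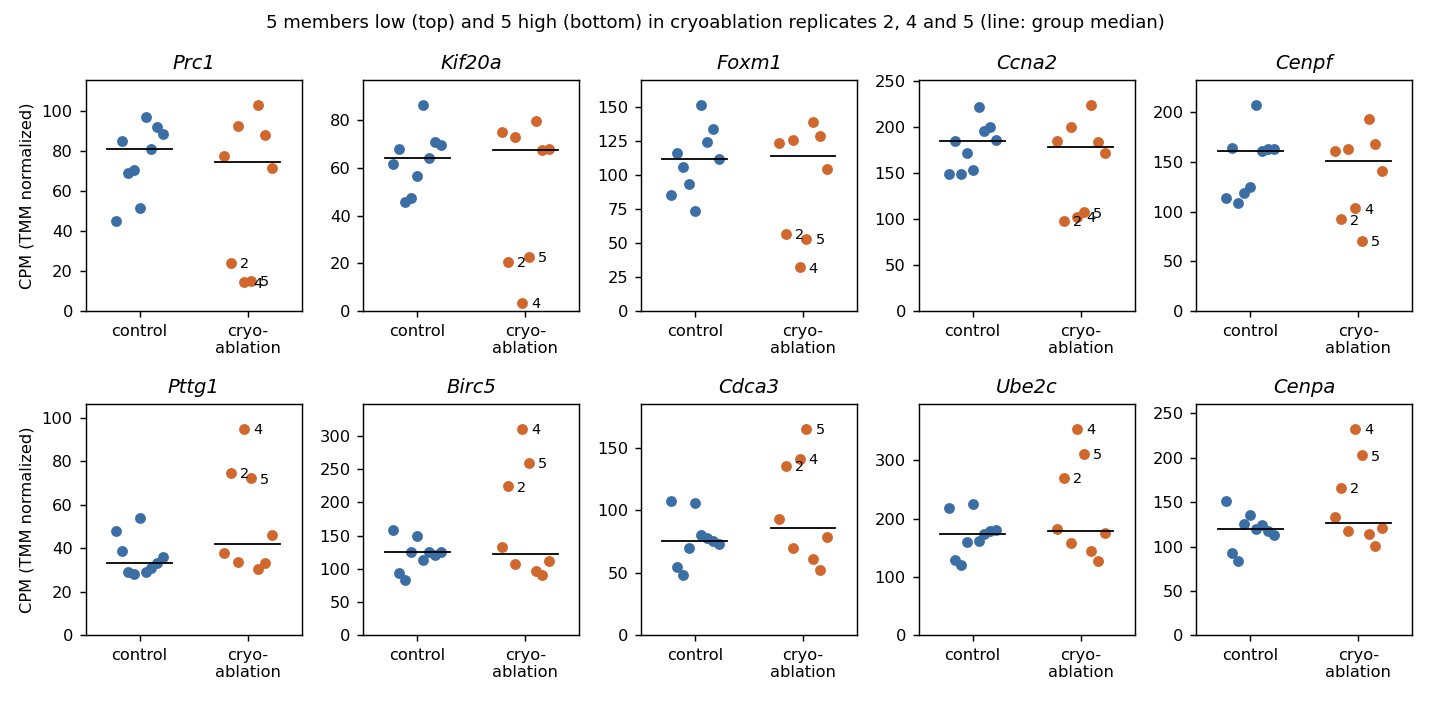
TMM-normalized CPM of 10 members in each tumor (points; blue, 9 control; orange, 8 cryoablation; lines, group medians). In the top row cryoablation replicates 2, 4 and 5, marked by number, are the lowest tumors (Kif20a 20.7, 3.44 and 22.7 CPM), in the bottom row the highest (Pttg1 74.7, 94.97 and 72.3 CPM). The control and cryoablation medians are 33.5 and 42.2 CPM for Pttg1 and 125 and 122 CPM for Birc5.

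The spread between tumors of the members was therefore uneven. The median SD of log2 CPM was 0.264 among control tumors and 0.308 among cryoablation tumors, and 22 of 38 members (57.9%) varied more in the cryoablation group, beside 80.2% of all genes tested. The ratio of the SDs was highest for Kif20a (5.42) and Prc1 (3.19) and lowest for Aurka (0.399). Within 1 tumor, the SD of the member deviations was 0.164 to 0.287 in the control group and reached 0.906 in cryoablation replicate 4.

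Apart from these tumors, most members varied in the same direction. In the other 14 tumors, the median pairwise correlation of the members' deviations from their group means was 0.579 (703 pairs, quartiles 0.304 and 0.800), beside 0.532 for the DNA replication genes and -0.0039 for all pairs of genes tested. Over all 17 tumors the median was 0.396 for the members (quartiles -0.115 and 0.708), 0.448 for the DNA replication genes and -0.000823 for all pairs. The pairs share the same libraries, and the values are a description. Control replicate 3 was the lowest tumor for 23 of the 38 members, with a mean deviation of -0.42 log2 units, and control replicate 6 was the highest for 13, with 0.20. Of 7 skeletal muscle markers 4 passed the filter, and the list summed to 93.7 and 142 CPM in these 2 tumors, to 59.3 and 47.4 CPM in cryoablation replicates 3 and 8, and to at most 17.4 CPM in the rest. Their part in the member levels was not tested. The mean deviation over the members ranged from -0.42 to 0.20 (median 0.06) in the control group and from -0.10 to 0.16 (median 0.01) in the cryoablation group. Without control replicate 3, 0 members had an unadjusted p below 0.05, beside 2.72% of all genes, and 17 of 38 members lay above 0.

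**Figure D5:**
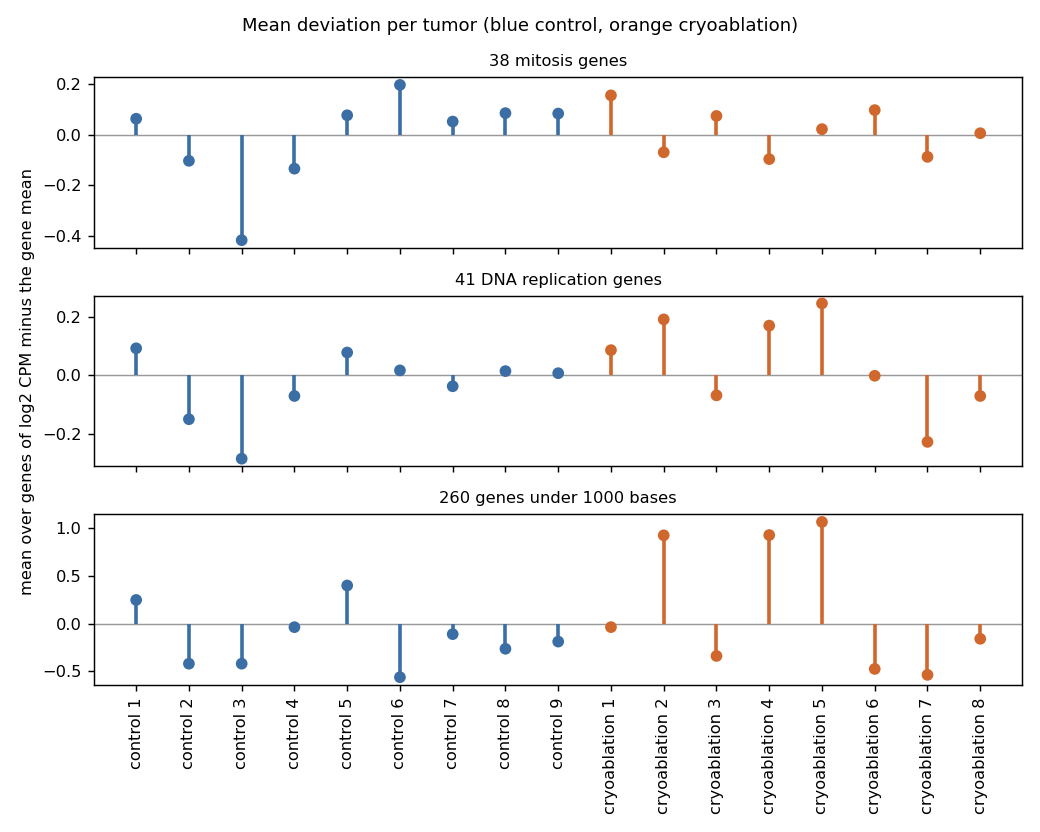
Mean deviation per tumor (y axes, log2 CPM minus the mean of each gene over the 17 tumors) of the 38 mitosis genes, the 41 DNA replication genes and the 260 genes under 1000 bases (blue, control; orange, cryoablation). Control replicate 3 is the lowest for the mitosis genes at -0.42, and cryoablation replicates 2, 4 and 5 are the highest for the short genes at 0.92, 0.93 and 1.07.

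The DNA replication genes, which act earlier in the cell cycle, were read from the same fit. Of 42 listed, 41 passed the filter, and 1 had an unadjusted p below 0.05, beside 4.91% of all genes. This was Rpa3, a subunit of the single-strand binding protein RPA (log2 fold change 0.40, exact permutation p = 0.117). Its unadjusted p was above 0.05 with limma's voom, upper-quartile normalization, no filter, the replicate block or offsets for gene length (0.11). Without cryoablation replicates 2, 4 and 5 it was -0.03 on the log2 scale. The median log2 fold change of the DNA replication genes was 0.07, between -0.20 (Pola1) and 0.45 (Orc6), close to that of the mitosis genes. The mean deviation of the DNA replication genes was 0.19, 0.17 and 0.25 in cryoablation replicates 2, 4 and 5, where that of the mitosis genes was near 0.

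Other genes of the mitotic machinery were read from lists that hold no member. Of 29 further kinetochore genes, 4 were higher at an unadjusted p below 0.05 and 0 lower, beside 3.74% and 1.17% of all genes, with a median log2 fold change of 0.07. Their log2 fold changes were 0.49 for Cenph, 0.76 for Cenpm, 0.68 for Pmf1 and 0.38 for Ska1, all with an edgeR adjusted p of 0.728. In that order, the exact permutation test gave p = 0.057, 0.1645, 0.160 and 0.0925. Of 26 further spindle, entry and cytokinesis genes, only Tacc3, which stabilizes spindle microtubules, had an unadjusted p below 0.05. Its log2 fold change was 0.35 (exact permutation p = 0.0771), and the median of the 26 was -0.01. Of 20 genes on a list for condensin and cohesin, which shape and hold the chromatids, 0 had an unadjusted p below 0.05 with edgeR. The smallest p on that list was that of Sgo2a (log2 fold change 0.15). With offsets for gene length (0.26), or for length and GC content (0.27), Sgo2a had an unadjusted p below 0.05, beside 5.44% and 5.61% of all genes. Of 15 core genes of the anaphase-promoting complex, only Anapc13 had an unadjusted p below 0.05. It had 5.92 to 19.3 CPM (median 7.89) in the control group and 5.91 to 48.6 CPM (median 10.5) in the cryoablation group. The log2 fold change of Anapc13 was 0.97 (standard error 0.43), with an edgeR adjusted p of 0.728 and an exact permutation p of 0.168. Without cryoablation replicates 2, 4 and 5, the log2 fold changes were 0.02 for Cenph, -0.13 for Cenpm, -0.18 for Pmf1, -0.01 for Ska1, 0.01 for Tacc3 and -0.28 for Anapc13.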

How the data were processed

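The tumors (9 control and 8 cryoablation) were grouped by their sample labels, which were followed where the text of the study gives the group sizes the other way round. The authors deposited 1 table with, for each gene and tumor, a count of reads that is not normalized, and FPKM. The deposited FPKM follow from these counts, the gene length in the table and the total of each tumor (largest relative difference 5.22e-15). The aligner and counter are not given in the sources used here. The submitters' notes name GRCm38 (mm10), but the positions in the table equal those of GENCODE M21, which is on that assembly, for 0 of the 38 members and 512 of 21827 shared genes, and they are therefore not printed.

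Counts were analysed with edgeR 4.0.16 in R 4.3.3 (TMM, filterByExpr by group, quasi-likelihood F test, group as the only term), with Benjamini-Hochberg adjustment over 13005 genes. Standard errors were obtained from the log2 fold change and the square root of F. CPM are TMM-normalized. For named genes a two-sided permutation test, exact, was run on log2 CPM (prior count 2) over 24310 splits, whose smallest p is 4.11e-05. No label names the mouse or batch of a tumor, so p values measure the spread between these samples. Depth was 13524899 to 17898672 counts per tumor, and limits from counts cover counting error only.

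Genes named from the members were a fixed list, the 2 with the highest and the 2 with the lowest fold change and any with an unadjusted p below 0.05. From other lists they were the gene with the smallest p, and other genes past 0.05 were named after their values were seen. The members and lists were chosen with earlier results of these data known. GC content came from the longest GENCODE M21 transcript. Promoters were taken from RefSeq by symbol.

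Alternatives were DESeq2 1.42.0, limma 3.58.1 (voom, samples weighted by quality), upper-quartile scaling, no filter or a minimum mean of 10 counts, a replicate block, offsets for gene length (natural splines, 4 degrees of freedom), leaving out cryoablation replicates 2, 4 and 5 together, and leaving out each tumor. Offsets for length and GC content were added after the data were seen. The fits were tested on simulated counts.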

Additional observations from a re-analysis of the deposited data

Results flagged for a closer look

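Aurka, the Aurora kinase of the spindle poles, was 40.7 CPM in control replicate 3, far from the other control tumors, of which the nearest had 56.7 CPM. The gap was 0.535 of the range of the 9 control tumors, above the critical value of Dixon's test for 9 samples. The test was run for each of the named members and for the mean deviations of the members and of the DNA replication genes, in both groups, and chance flags about 1 in 20 groups. Without this tumor the log2 fold change of Aurka was -0.10 in place of -0.03. Control replicate 3 was also the lowest tumor for 23 of the 38 members.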

How the results depend on the processing

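With each tumor left out in turn, between 0 (without control replicate 3, 4 or 6 or cryoablation replicate 2, 4 or 5) and 6 members (without cryoablation replicate 7) had an unadjusted p below 0.05, where the share of all genes went from 1.93% to 10.6% and was 10.1% without cryoablation replicate 7. In these fits 0 members passed after adjustment, and the median log2 fold change of the members ranged from -0.01 to 0.07. For the DNA replication genes the number ranged from 0 to 9 (without cryoablation replicate 7) and the median from 0.04 to 0.11. Members changed sign in some of these fits, with ranges of -0.063 to 0.0056 for Top2a, -0.027 to 0.072 for Plk1, -0.044 to 0.030 for Aurkb, -0.094 to 0.037 for Bub1b, -0.023 to 0.12 for Cdc20 and -0.060 to 0.041 for Kif11. Cryoablation replicates 2, 4 and 5 decided most signs, and without them 2.45% of all genes had an unadjusted p below 0.05. Without these 3 tumors, 0 members and 0 DNA replication genes passed, and the log2 fold change was 0.040 for Top2a, 0.10 for Ccna2, -0.11 for Cdk1, 0.16 for Foxm1, 0.030 for Aurkb, -0.18 for Birc5, 0.13 for Bub1b, -0.047 for Cdc20, -0.13 for Ube2c, -0.00595 for Pttg1, -0.019 for Cenpa, 0.16 for Cenpf, -0.00739 for Ndc80, 0.094 for Kif11, 0.19 for Prc1, 0.12 for Anln and 0.19 for Kif20a. Outside the members it was -0.026 for Rpa3, -0.28 for Anapc13, -0.075 for Lin37, -0.18 for Pmf1, -0.014 for Ska1 and -0.13 for Cenpm. With offsets for gene length, 2 members (Cenpa and Pttg1) and 3 DNA replication genes passed, beside 5.44% of all genes. The log2 fold change was then 0.091 for Top2a, -0.0409 for Plk1, -0.0641 for Cdc20 and 0.073 for Kif11. With offsets for length and GC content, 2 members and 2 DNA replication genes passed, beside 5.61% of all genes. The values were then 0.11 for Top2a, -0.043 for Plk1, -0.0730 for Cdc20 and 0.080 for Kif11. With limma's voom, Mki67 passed in place of Pttg1 (0.27) and 2 DNA replication genes passed, beside 10.1% of all genes. Plk1 was then -0.015, Bub1b 0.064 and Kif11 0.0002598. The number of DNA replication genes was 2 with DESeq2, 0 with upper-quartile normalization and 0 without a filter, beside 6.77%, 4.46% and 5.57% of all genes. The causes were not tested. Leaving aside the fits without a single tumor, of 315 values of single named genes under the alternatives 249 kept their direction and their side of 0.05.

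With the replicate block, 1 member (Pttg1) and 0 DNA replication genes passed, beside 3.39% of all genes. The tumors share only a number: the deviations of same-numbered tumors correlated above 0.1 in 5 of 8 pairs, and 2 of 8 cryoablation tumors correlated best with their own number.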

Other observations

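Regulators of the cell cycle that are not part of the mitotic machinery were read from the same edgeR fit. Of 18 genes of the MuvB complex, the pocket proteins and the E2F family, which switch cell cycle genes on and off, 0 had an unadjusted p below 0.05, and the smallest p was that of Lin37, a MuvB subunit (log2 fold change 0.25, standard error 0.17). Of 6 G1 cyclins and kinases, Ccnd3, cyclin D3, was lower at that level. It ranged from 78.9 to 112 CPM (median 82.6) in the control group and from 49.7 to 83.8 CPM (median 77.3) in the cryoablation group, and 6 of 8 values of the latter were under the control median. The log2 fold change of Ccnd3 was -0.23 (standard error 0.10), the edgeR adjusted p was 0.728 and the exact permutation test gave p = 0.0161. It was -0.16 without cryoablation replicates 2, 4 and 5 and -0.12 with offsets for gene length, both with an unadjusted p above 0.05. The unadjusted p was also above 0.05 with limma's voom (-0.11) and the replicate block (-0.25). With 1 tumor left out at a time, the call was lost in 8 of 17 fits. Of 11 CDK inhibitors and other brakes of the cycle that passed the filter, 0 were called, and the smallest p was that of Cdkn2d (log2 fold change 0.32, standard error 0.17). Cdkn2d had an unadjusted p below 0.05 with limma's voom (0.28) and with the replicate block (0.29), beside 10.1% and 3.39% of all genes. It also did without control replicate 5 or cryoablation replicate 3. Without cryoablation replicates 2, 4 and 5 its log2 fold change was 0.02.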
